A study of Mus musculus with 4 samples.

Results

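The replication-dependent histone genes were followed through the immune cells of the neonatal mouse heart. Of the 32285 genes in the deposited matrices, 67 carry a symbol that begins with Hist1h, Hist2h, Hist3h or Hist4h, and 61 of these had at least 30 UMIs (unique molecular identifiers, counted RNA molecules) over the 4 libraries in cells with at least 500 UMIs, at least 200 genes and at most 10% mitochondrial UMIs. These 61 members comprised 5 H1, 15 H2A, 16 H2B, 12 H3 and 13 H4 genes. The members closest above the threshold were Hist1h3h with 54 UMIs and Hist1h4f with 69, and the symbols closest below it were Hist1h2ah with 22 and Hist1h1t, the testis-type linker histone, with 14.

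Live CD45+ cells, which are immune cells, were sorted from digested hearts of C57BL/6 mice freed of the atria, and their RNA was sequenced cell by cell from the 3′ end. The mice were heterozygous (PD1 +/-, here Het) or homozygous (PD1 -/-, here KO) for loss of PD1, a receptor that restrains activated T cells, so every group carried at least 1 mutant copy. On postnatal day 2 the pups underwent either sham surgery or surgery that causes myocardial infarction (MI), and hearts were collected 7 days afterwards. Each of the 4 groups, Het_sham, KO_sham, Het_MI and KO_MI, held 1 library, so a difference between groups has no replicate check and was not tested, and intervals cover counting error only. The number of hearts behind a library is not given in the labels, and values below follow the order Het_sham, KO_sham, Het_MI and KO_MI.

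The libraries held between 6157 and 8379 barcodes, and after filters and removal of doublets 4455, 5296, 4170 and 5458 cells remained. Their median depth was 5540, 6475.5, 7592 and 6204 UMIs. Any pair of libraries shared 4 to 13 cell barcodes. Cell classes were gated by markers, and all markers of the macrophage, neutrophil, T cell and thymocyte-like T cell lists were detected in the class of that name. The same markers set the gates, so their detection is no separate check. All 8 T cell markers were also detected in macrophages. Levels are given as CPM, that is, UMIs per 1000000 UMIs summed over the named cells of a library.

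Replication-dependent histone genes encode the 4 core histones H2A, H2B, H3 and H4, around which DNA is wrapped, and the linker histone H1, which binds the DNA between nucleosomes. Their RNA is made mainly while DNA is copied, lies in dense gene clusters, and typically ends not in a poly(A) tail but in a conserved stem-loop that the protein SLBP binds. Some of these genes can also yield RNA with a poly(A) tail, and 3′ libraries made by priming on poly(A) see such RNA best, so UMI counts of different members do not rank their true abundance.

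The stem-loop is the sequence feature that most members shared. A run of 16 bases, in which a stem of 6 bases opens with GG, pairs with a stem that closes with CC and encloses a loop of 4, was searched on the sense strand within 150 bases after the stop codon of the GENCODE M21 transcripts (GRCm38). It was found in 44 of the 61 members, against 0.257% of the 21830 genes with a coding transcript, a share that includes the members. Of all genes that are not members, histone symbols below the UMI threshold included, 12 held it. Of the 17 members without it, 11 have a single coding transcript, annotated with no bases after the stop codon, Hist1h1b among them, so their window held nothing to search. The 3 most frequent forms are shown because they divide the core families, with the bases of the stem in capitals and the loop in lower case.
form found in 25 members: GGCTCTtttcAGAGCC
form found in 7 members: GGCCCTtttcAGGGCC
form found in 5 members: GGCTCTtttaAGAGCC
The first form lies in H1, H2A, H2B and H3 genes, from Hist1h1c to Hist3h2a. The second was found in H4 genes alone, Hist1h4d and Hist4h4 among them. The third lies in 2 H2B and 3 H3 genes, Hist1h3c among them.

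A poly(A) signal (AATAAA or ATTAAA in the last 50 bases of an annotated transcript) was found for 15 of the 61 members, against 78.9% of all genes with a coding transcript. In transcripts annotated with no bases after the stop codon, this window held coding sequence, so a signal further on could not be seen. The annotation places 49 members on chromosome 13, 9 on chromosome 3, 2 on chromosome 11 (Hist3h2a and Hist3h2ba) and 1 on chromosome 6 (Hist4h4). Of the members, 18 overlap a gene on the other strand and 7 a gene on the same strand. Hist1h2be (chr13:23583670-23621124, minus strand) overlaps one end of Hist1h1e (chr13:23620629-23622558, minus strand), and many members differ by few bases, so the division of UMIs between such genes is uncertain.

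Promoters of RefSeq (GRCm38.p6, from 250 bases before to 50 after the start) were matched for 55 members. The CCAAT box, searched on both strands like every motif here, was present in 46 of them, against 37.9% of 27025 promoters. It was in all matched H1 (4), H2A (15), H2B (14) and H3 (10) promoters, but in 3 of 12 H4 promoters. TATAAA was present in 31 (14.2% of all promoters), the octamer ATTTGCAT in 10, of which 5 are H2A and 5 H2B genes (1.75%), and AAACACA, known from H1 promoters, in 5, of which 3 are H1 genes (7.14%). None of the 4 motifs contains another, and a match is a description of letters, not of a bound factor. The promoters of Hist1h1b and Hist3h2a are shown, since these members moved in opposite directions through the cell cycle, with every match in capitals. The promoter of Hist1h1b lies at chr13:21780576-21780875 on the minus strand and that of Hist3h2a at chr11:58954435-58954734 on the plus strand.
Hist1h1b: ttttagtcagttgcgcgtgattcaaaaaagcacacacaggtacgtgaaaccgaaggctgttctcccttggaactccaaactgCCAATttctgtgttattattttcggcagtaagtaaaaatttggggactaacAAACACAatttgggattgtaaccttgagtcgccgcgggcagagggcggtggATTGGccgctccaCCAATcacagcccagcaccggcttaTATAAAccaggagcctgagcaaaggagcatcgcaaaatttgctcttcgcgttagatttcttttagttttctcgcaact
Hist3h2a: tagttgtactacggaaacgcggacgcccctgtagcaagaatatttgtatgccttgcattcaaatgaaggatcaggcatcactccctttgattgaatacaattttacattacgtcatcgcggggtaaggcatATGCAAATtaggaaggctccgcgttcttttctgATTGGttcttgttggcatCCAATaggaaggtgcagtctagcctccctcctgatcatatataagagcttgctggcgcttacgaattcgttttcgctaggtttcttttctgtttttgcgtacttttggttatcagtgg
The Hist1h1b promoter holds 3 CCAAT matches, 1 TATAAA and 1 AAACACA. The Hist3h2a promoter holds 2 CCAAT matches and 1 octamer, written there as its reverse complement.

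A few members gave most of the UMIs. Hist1h1b, a linker histone, gave 35697 UMIs, Hist1h2ae (H2A) 18912, Hist1h2bc (H2B) 16775, Hist1h1e (linker histone) 15539, Hist1h4d (H4) 15268, Hist1h2ap (H2A) 15103, Hist1h1c (linker histone) 11473 and Hist3h2a (H2A) 6752. Together these 8 held 66.6% of all member UMIs, and the first 5 held 50.2%. Hist1h3c led the H3 genes with 5156. By family, H1 genes gave 34.9% of the UMIs, H2A 28.2%, H2B 16.4%, H4 12.8% and H3 7.72%.

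To follow the members through the cell cycle, cells were thinned to 2000 UMIs each and sorted into ranges by 26 genes of DNA synthesis and 20 genes of mitosis, none of them a histone gene. The resting range had no UMI of either list. The synthesis range had at least 3 of the first and at most 1 of the second, the mitosis range the reverse, and the range with both lists at least 2 of each. The ranges are cuts through a continuous score, not cell types. Among macrophages, 992 cells had 2 UMIs of the synthesis list and 538 had 3, so many lie near the cut. The range with both lists, and the comparison of mitosis with rest, were added after the data had been seen.

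In macrophages, nearly the whole family was higher in cells with both lists than in resting cells. The summed level of the members was 357, 258, 232 and 238 CPM in resting macrophages and 2533, 2483, 2516 and 2106 CPM in macrophages with both lists, so the ranges did not overlap. Of 44 members that could be tested, 39 were higher (background 23.7% of all genes tested), 1 was lower (background 23.7%) and 4 did not pass the test. Their median log2 fold was 4.09, against −0.03 over all genes tested. Over all 61 members, including those too low to test, 52 were higher in 4 of 4 libraries (27.6% of genes with at least 30 UMIs), 1 was lower in 4 of 4 (22.8%) and 8 were mixed. A member near 0 at rest could enter the test only through its level with both lists. The proliferation genes Mki67 and Top2a, which served as a check, were 4.71 and 6.84 higher on the log2 scale. Macrophages with both lists were also deeper, with a median of 17354, 15473, 16991 and 12655 UMIs against 10024, 8956, 9884 and 7815 in the resting range, and the part of depth in the result was not tested.

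**Figure D1:**
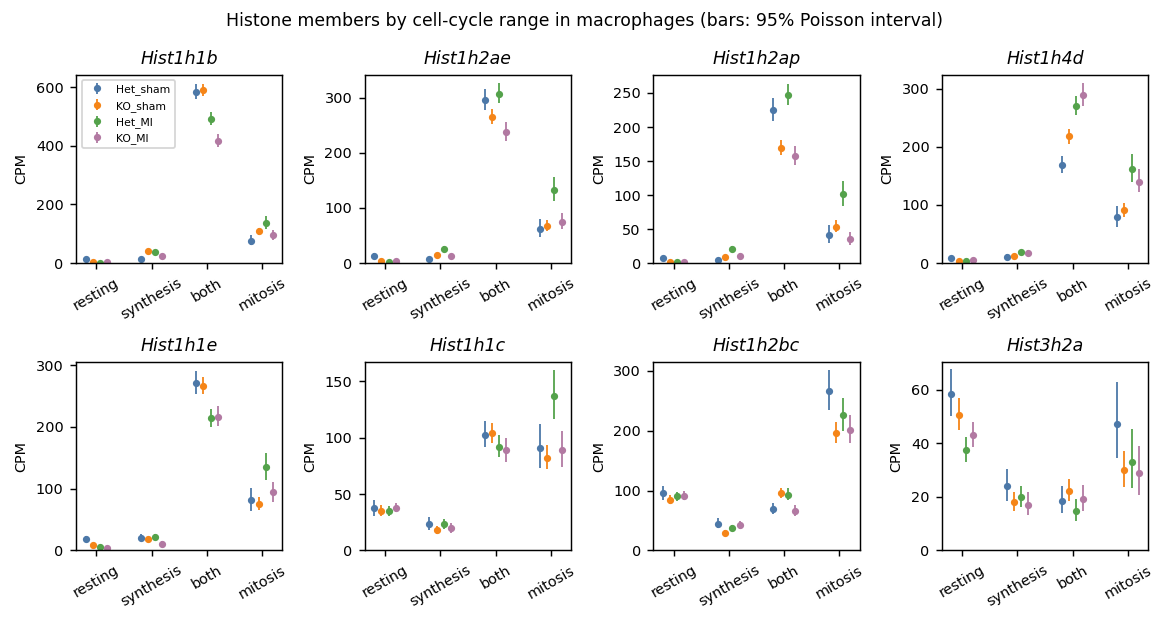
Level in CPM (y axis, each panel from 0) of the 8 members with most UMIs in macrophages of 4 cell-cycle ranges (x axis), 1 point per library with its 95% Poisson interval. Hist1h1b stands between 418 and 591 CPM in the range with both lists and at or below 12.2 CPM in the resting range, while in every library Hist3h2a is highest in resting cells and Hist1h2bc in the mitosis range.

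Linker histones, which compact chromatin between nucleosomes, were higher in all 5 of 5 cases. Hist1h1b stood at 585, 591, 493 and 418 CPM in macrophages with both lists against 12.2, 2.49, 1.46 and 2.45 in resting macrophages. Its log2 fold was 7.11 ± 0.18 (SE, 4 libraries; edgeR adjusted p = 2.79e-16). Hist1h1e went from 18.5, 8.19, 5.68 and 3.75 CPM at rest to 272, 267, 214 and 217, a log2 fold of 4.93. Hist1h1c had the smallest fold of the 5, with 37.3, 35.1, 34.8 and 37.9 CPM at rest and 103, 104, 91.9 and 88.7 with both lists, a log2 fold of 1.36 ± 0.08 (adjusted p = 3.04e-11). Hist1h1a and Hist1h1d had log2 folds of 5.42 and 4.25.

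Of 12 tested H2A genes, whose products pair with H2B, 11 were higher, with a median log2 fold of 5.49. Hist1h2ab had 63.7, 61.3, 65.5 and 45.5 CPM with both lists and 1.98, 0.178, 0.146 and 0 at rest, a log2 fold of 7.23 ± 0.27. Hist1h2af and Hist1h2ap followed with log2 folds of 7.19 and 6.64. Hist1h2ap stood at 225, 170, 248 and 158 CPM against 6.93, 0.89, 1.31 and 1.03, and Hist1h2ae at 296, 265, 307 and 237 against 12.9, 3.56, 2.62 and 3.23. In each of these 4 genes every library with both lists lay above every resting one, with the highest resting value in Het_sham. The H2A gene of chromosome 11, Hist3h2a, went the other way and was the only member called lower. It had 58.4, 50.8, 37.4 and 43.0 CPM at rest and 18.6, 22.4, 14.7 and 19.1 with both lists, so the groups did not overlap, and its log2 fold was −1.36 ± 0.10 (adjusted p = 2.14e-09).

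Among 13 tested H2B genes 11 were higher, with a median log2 fold of 3.65. The 2 that did not pass the test were Hist1h2bc and Hist2h2be. Hist1h2bc, the H2B gene with most UMIs, had 69.9, 95.6, 93.2 and 66.2 CPM with both lists and 95.1, 84.8, 90.2 and 91.6 at rest, so the groups overlapped (log2 fold −0.18 ± 0.09, adjusted p = 0.119). Hist2h2be was low throughout, between 0.98 and 5.28 CPM (log2 fold −0.32, adjusted p = 0.518). Hist3h2ba passed with a log2 fold of 0.55 (adjusted p = 0.00557), though its adjusted p reached 0.353 under 1 of the alternatives tried.

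Of 8 tested H3 genes 7 were higher, with a median log2 fold of 4.38. Hist1h3b had no UMI in resting macrophages of any library and 15.7, 9.83, 11.99 and 8.91 CPM with both lists. Set against 3 UMIs over all resting macrophages, which a count of 0 allows, it was at least 88.0-fold higher. Hist1h3c, the H3 gene with most UMIs, stood at 67.3, 71.1, 66.9 and 46.8 CPM against 3.96, 1.07, 0.291 and 0.775 (log2 fold 5.68). Hist2h3c1 did not pass, with 0.98, 3.08, 2.13 and 1.91 CPM against 2.31, 2.85, 3.64 and 2.07 (log2 fold −0.41, adjusted p = 0.322).

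Of 6 tested H4 genes 5 were higher, with a median log2 fold of 2.71. Hist1h4d had the largest fold, from 8.91, 2.85, 4.37 and 5.17 CPM at rest to 169, 218, 271 and 290 with both lists (log2 fold 5.61 ± 0.14). Hist1h4i had 10.6, 9.44, 9.47 and 6.59 CPM at rest and 37.6, 36.4, 29.0 and 28.9 with both lists, a log2 fold of 1.83. Hist4h4, the only member on chromosome 6, had 7.51, 3.66, 7.73 and 6.36 CPM against 6.27, 4.99, 2.62 and 2.84 and did not pass (log2 fold 0.58, adjusted p = 0.106).

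**Figure D2:**
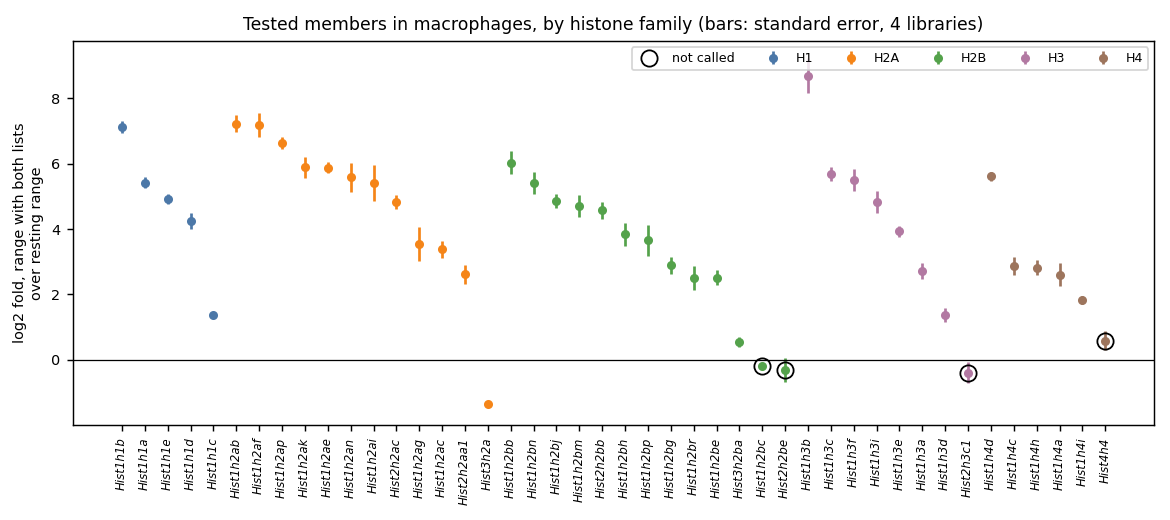
Log2 fold (y axis) of each tested member (x axis) in macrophages with both lists over resting macrophages, coloured by histone family, with the standard error over 4 libraries; black rings mark members that did not pass the test. Most members lie well above 0, while Hist3h2a lies at −1.36 and Hist1h2bc, Hist2h2be, Hist2h3c1 and Hist4h4 carry rings. The value of Hist1h3b, with no UMI at rest, depends on the prior count and is not a measured size.

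The members that were not called higher had longer annotated sequence after the stop codon. Its length had a median of 109 bases (0 to 4931) in the 39 members called higher and of 1700 bases (742 to 2515) in the 5 others. All 5 of these exceed 500 bases, against 10 of the 39, and a poly(A) signal was found at an annotated end in 4 of the 5 and 9 of the 39. Across the 44 tested members, which share libraries and are not independent, Spearman's rho between length after the stop and log2 fold was −0.63, given as a description. The 15 members above 500 bases had a median log2 fold of 2.51 and the 29 others of 4.85, a split chosen after the values had been seen. For some members called higher the annotation ends at or next to the stop codon. Hist1h1b (0 bases) and Hist1h2af (1 base), both with large folds, are among them. Such members count as short in all these values, although the length of their RNA after the stop is not known from the annotation. For them the search for a poly(A) signal read coding sequence. Hist3h2a, Hist2h3c1 and Hist4h4 hold a stem-loop as well, and Hist3h2a shares its first form with Hist1h1c and Hist1h2ab.

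Cells with mitosis genes alone held less histone RNA than cells with both lists, with 1 H2B gene as the main exception. The summed level was 1106, 1024, 1534 and 1118 CPM in mitosis-range macrophages, between that of the resting range and that of the range with both lists in every library. Against mitosis, 26 of 38 tested members were higher with both lists (background 7.77%) and 2 were lower (background 6.47%), and over all 61 members 34 were higher in 4 of 4 libraries (17.2% of genes) and 4 lower (13.9%). Hist1h2an had the largest difference, with 8.49, 9.06, 7.19 and 6.36 CPM against 0, 2.59, 0.872 and 0.702 (log2 fold 2.48). Hist1h1b (2.30), Hist1h1a (1.80), Hist1h2ap (1.78) and Hist2h2ac (1.75) came next.

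Hist1h2bc peaked in the mitosis range. It stood there at 267, 196, 226 and 202 CPM, above every library of the resting range and of the range with both lists. The log2 fold was 1.21 ± 0.07 over resting cells (adjusted p = 2.12e-09) and −1.43 ± 0.10 for both lists over mitosis (adjusted p = 2.48e-09). Hist3h2a, at 47.2, 29.9, 33.1 and 28.8 CPM in mitosis, was lower than at rest (−0.56, adjusted p = 0.00267) and higher than with both lists (−0.82 for both over mitosis, adjusted p = 0.0013). Hist1h4i and Hist2h2be were the other 2 members lower with both lists in 4 of 4 libraries, but Hist1h4i did not pass (−0.29, adjusted p = 0.131).

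Against rest, the mitosis range still had 27 of 30 tested members higher (background 15.3%) and 1 lower (background 16.8%). Hist1h2af had the largest log2 fold, 6.23, with 7.18, 6.28, 18.3 and 5.62 CPM against 0.33, 0.178, 0 and 0. Hist1h2ab (5.91), Hist1h2ap (4.84), Hist1h1b (4.82) and Hist1h4d (4.57) followed. Het_MI had the highest level in mitosis-range cells for Hist1h2af, Hist1h2ap, Hist1h1b and Hist1h4d.

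Macrophages of the synthesis range, which carry replication genes but almost no mitosis genes, showed no common direction against resting macrophages in summed histone RNA. Their summed level was 261, 239, 296 and 231 CPM, against 357, 258, 232 and 238 CPM at rest. The share of thinned cells with a member UMI was lower than at rest in every library. It was 30.3%, 24.2%, 20.8% and 23.9% in the synthesis range, against 46.5%, 33.0%, 34.8% and 36.5% in resting macrophages. Of 25 tested members 10 were higher than at rest (background 17.3%) and 5 were lower, a share near the background of 18.9%. Hist1h1b rose from 12.2, 2.49, 1.46 and 2.45 CPM to 14.2, 40.2, 38.0 and 25.6 (log2 fold 3.02 ± 0.35, adjusted p = 1.94e-06). Hist1h2ab (2.69), Hist1h2ap (2.54), Hist1h1a (2.11) and Hist1h2bj (1.81) were the next highest.

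The 5 members lower in the synthesis range came from the H1, H2A, H2B and H4 families. Hist1h2bc fell from 95.1, 84.8, 90.2 and 91.6 CPM at rest to 44.7, 29.6, 37.1 and 42.2, a log2 fold of −1.34 ± 0.08. Hist3h2a fell from 58.4, 50.8, 37.4 and 43.0 CPM to 23.99, 18.1, 19.8 and 17.1, also −1.34. Hist3h2ba (−0.91), Hist1h1c (−0.88) and Hist4h4 (−0.73) were the others. Over all 61 members, 13 were higher in 4 of 4 libraries (26.4% of genes with at least 30 UMIs) and 8 lower (16.4%). Of the 61 members 28 were under this minimum, so the member counts and the gene shares do not rest on like sets.

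The 2 active ranges were then set directly against the synthesis range. With both lists, 38 of 39 tested members were higher (background 12%) and Hist3h2a was the one that did not pass, at log2 −0.04. Fewer members entered this comparison in lymphoid cells, where 19 of 23 were higher in T cells (background 4.01%), 17 of 19 in B cells (background 5.74%) and 24 of 27 in thymocyte-like T cells of 3 libraries (background 6.21%, and 5.21% lower). Between synthesis and mitosis, all 29 tested members were lower in the synthesis range (background 11.8%), from Hist3h2a at −0.81 to Hist1h2ab at −3.27. Over all 61 members 39 were lower in 4 of 4 libraries (15.9% of genes) and none was higher in 4 of 4 (21.3% of genes).

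B cells and T cells showed the same contrast between resting cells and cells with both lists, in smaller numbers of cells. In B cells 19 of 21 tested members were higher (background 24.9%), and 36 of all 61 were higher in 4 of 4 libraries (26.7% of genes). Hist1h1b stood at 854, 933, 822 and 760 CPM against 23.2, 5.79, 5.54 and 5.61 at rest (log2 fold 6.32 ± 0.19). Hist1h3c (6.17), Hist1h2af (5.33), Hist1h2ab (5.08) and Hist1h2ae (4.92) followed. Hist1h2bc (0.36, adjusted p = 0.344) and Hist3h2a (−0.12, adjusted p = 0.727) did not pass, and both were also among the 5 members not called higher in macrophages.

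In T cells 18 of 18 tested members were higher (background 24.1%), and 39 of all 61 were higher in 4 of 4 libraries (29.6% of genes). In this as in other comparisons of ranges, a member near 0 in 1 range could pass the filter on low counts only through the other. The count of 18 of 18 was therefore partly set by the filter, and 43 members were not tested. Hist1h1b stood at 1633, 950, 1363 and 1308 CPM with both lists and at 43.0, 19.6, 0 and 21.6 at rest. Hist1h2ab had no UMI in any resting T cell, which makes it at least 47.6-fold higher with 3 UMIs set as its floor over all resting T cells. Hist1h1c had the smallest log2 fold, 1.13, with 95.5, 131, 84.0 and 68.4 CPM against 27.4, 39.3, 48.2 and 37.0. Hist1h2bc and Hist3h2a were too low in T cells to enter this test.

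The synthesis range of B cells differed widely between libraries, and that of T cells less. In B cells of that range Hist1h1b had 22.1, 232, 6.84 and 166 CPM, so both KO libraries were high and both Het libraries were near the resting level, and Hist1h2ae had 17.9, 131, 10.9 and 71.9. The summed level was 332, 929, 241 and 809 CPM over 97, 100, 82 and 59 cells, of which the cell with most member UMIs held 5.39%, 18.1%, 10.8% and 36.0%. In B cells 5 of 9 tested members were higher in synthesis than at rest (background 19.7%) and Hist1h1c was lower (background 16.9%; log2 fold −0.69, adjusted p = 0.0169). With DESeq2 in place of edgeR none of the B cell calls was made, while at an unadjusted p under 0.05 edgeR gave 5 higher and 2 lower. Without KO_sham edgeR called 2 higher and none lower. In T cells the summed level of the synthesis range was 1815, 1625, 1463 and 1433 CPM over 32, 20, 30 and 35 cells. At rest it was 387, 236, 275 and 284 CPM. In T cells 7 of 8 tested members were higher (background 11.4%, and 9.09% lower), led by Hist1h2ap with 157, 104, 214 and 138 CPM against 23.4, 2.8, 0 and 0.

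Across the cell classes described, the summed level was highest in thymocyte-like T cells, followed by T cells, and lowest in monocytes. Thymocyte-like T cells, which express the recombinase and pre-T cell receptor genes of developing T cells, had 5770, 4803, 4920 and 4496 CPM. T cells had 3171, 1090, 2118 and 2595 CPM and NK cells 2410, 965, 1120 and 2351, the latter from 17 to 70 cells. Macrophages, at 847, 754.7, 643 and 520 CPM, and B cells, at 671, 641, 652 and 751, overlapped. Neutrophils had 702, 480, 510 and 521 CPM, and dendritic cells 388, 704, 422 and 615. Classical monocytes (291, 191, 244 and 212) and non-classical monocytes (226, 161, 216 and 129) were the lowest of these and overlapped each other. Mast cells or basophils, with 1351, 266, 534 and 911 CPM, rested on single cells: 1 cell gave 61.3% of the member UMIs in Het_sham, and without the top cell of each library the values were 580, 232, 420 and 530. Without the top cell of each library NK cells had 1459, 700, 823 and 2151 CPM. Dendritic cells then had 234, 592, 330 and 447 CPM, so in Het_sham they fell below classical monocytes (256). Innate lymphoid cells and B cell precursors had at most 25 cells in a library and are not described.

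**Figure D3:**
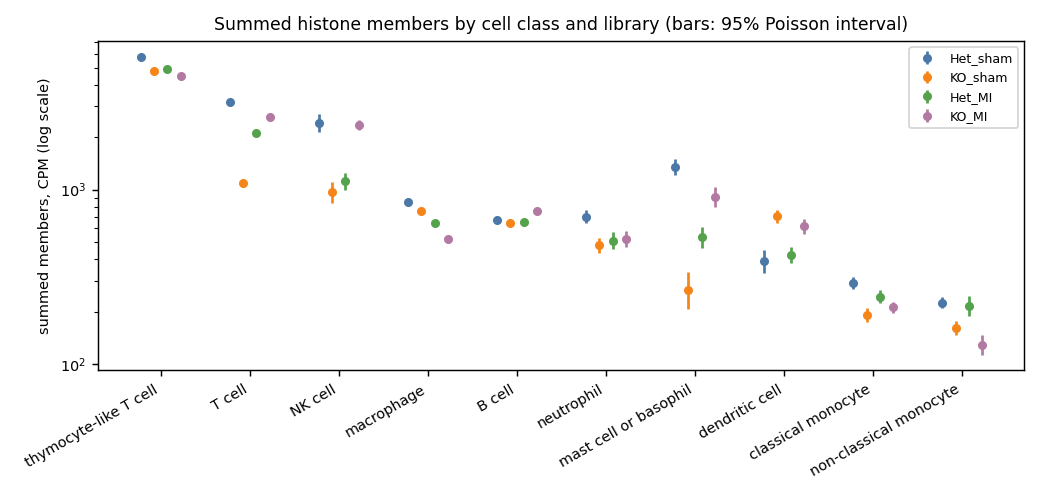
Summed level of the 61 members in CPM (y axis, log scale) by cell class (x axis), 1 point per library with its 95% Poisson interval. Thymocyte-like T cells lie above every other class in all 4 libraries, and both kinds of monocyte lie at the bottom.

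The share of cells in the synthesis, mitosis and both-list ranges, was taken in cells thinned to 2000 UMIs. It was 78.7%, 75.0%, 67.3% and 85.1% in thymocyte-like T cells and 43.0%, 20.2%, 31.8% and 40.4% in T cells. In macrophages it was 37.4%, 39.8%, 31.4% and 27.6%, and without thinning 77.3%, 76.7%, 75.2% and 61.8%. In B cells it was 15.0%, 14.03%, 17.1% and 16.9%. The order of the shares matched that of the histone levels in part. KO_sham had the lowest level and the lowest share among T cell libraries, and KO_MI had both among macrophage libraries. Thymocyte-like T cells of KO_MI had the highest share but the lowest level of that class, macrophages of KO_sham had a higher share but a lower level than those of Het_sham, and in KO_MI B cells had a lower share but a higher level than macrophages.

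The members with most UMIs had different orders of level over the classes. Hist1h1b reached 1522, 1147, 1159 and 913 CPM in thymocyte-like T cells against 134, 130, 87.8 and 62.3 in macrophages and 17.2, 6.63, 16.1 and 1.65 in non-classical monocytes. Hist1h2bc had 253, 258, 165 and 206 CPM in neutrophils, 101, 94.5, 82.7 and 87.3 in macrophages and 57.1, 43.1, 38.4 and 43.5 in thymocyte-like T cells, 3 groups of values that did not overlap. Hist3h2a had 39.3, 34.7, 31.0 and 31.9 CPM in macrophages, 34.2, 27.7, 25.6 and 31.9 in B cells and 14.6, 7.74, 9.27 and 10.2 in T cells. Hist1h1c had 54.5, 53.7, 45.3 and 46.1 CPM in macrophages and 34.8, 38.0, 34.5 and 28.5 in B cells.

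To separate cell class from division, classes were compared within the resting range, each against the mean of 5 other classes. In resting neutrophils 4 of 10 tested members were higher (background 23.2%) and none was lower (background 26.7%; none at an unadjusted p under 0.05). Hist1h2bc stood at 316, 212, 160 and 124 CPM there, a log2 fold of 3.39 ± 0.19 (edgeR adjusted p = 3.29e-15). No resting library of macrophages, at 95.1, 84.8, 90.2 and 91.6 CPM, or of the other classes compared reached 124. Hist1h2be (2.61), Hist1h4i (2.53) and Hist1h1c (1.81) were higher as well. Hist1h4i had 57.9, 43.4, 36.3 and 29.2 CPM in resting neutrophils and 10.6, 9.44, 9.47 and 6.59 in resting macrophages.

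In resting macrophages 2 of the 10 tested members were higher (background 38.1%) and 7 were lower (background 25.4%). The 2 were Hist3h2a, with 58.4, 50.8, 37.4 and 43.0 CPM (log2 fold 1.46 ± 0.12, adjusted p = 1.35e-11), and Hist1h2bc (1.42 ± 0.14, adjusted p = 8.29e-10). The lowest were Hist1h1e (−1.70), Hist1h4d and Hist1h2ap (both −1.51), Hist1h2be (−1.13) and Hist1h1b (−1.12). Hist1h1c did not pass, at 0.03. Without Het_sham 4 members instead of 7 were lower.

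In resting B cells 6 of 10 were higher (background 35%) and Hist1h2bc was lower (background 28.8%; log2 fold −0.50, adjusted p = 0.0412). Hist1h2ap (1.58), Hist1h1e (1.45), Hist1h2be (1.42), Hist1h2ae (1.04) and Hist1h4d (0.87) led, and Hist3h2a (0.64) was the sixth. In resting T cells Hist1h1b (1.89) and Hist1h4d (1.73) were higher (background 21.2%), and Hist3h2a (−1.08) and Hist1h2bc (−0.99) lower (background 19.7%), counts of 2 of 10 each that lie at the background. Leaving out single libraries moved these T cell counts, with 1 higher without Het_sham, 4 higher without Het_MI, and 1 lower without Het_sham, KO_sham or KO_MI. The single B cell call of a lower member was lost without any of those same 3 libraries.

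Monocytes had no member higher at rest. In classical monocytes 3 of 10 were lower (background 14.8%), Hist1h2be (−2.08), Hist1h2bc (−1.17) and Hist1h1c (−0.98), and none was higher (background 27.3%), though 1 was at an unadjusted p under 0.05. In non-classical monocytes 5 were lower (background 15.2%), with Hist1h2bc lowest at 20.9, 6.99, 2.31 and 11.7 CPM (log2 fold −2.15, adjusted p = 2.76e-07), and none was higher (background 25.2%; none at an unadjusted p under 0.05).

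**Figure D4:**
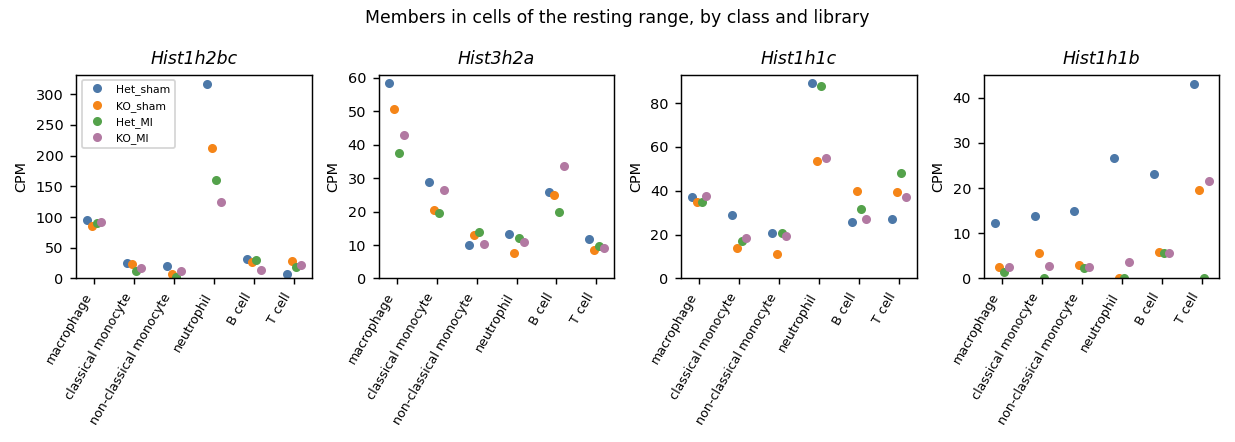
Level in CPM (y axis, from 0) of Hist1h2bc, Hist3h2a, Hist1h1c and Hist1h1b in resting-range cells of 6 classes (x axis), 1 point per library. Hist1h2bc is highest in neutrophils (124 to 316 CPM) and Hist3h2a in macrophages (37.4 to 58.4 CPM), while Hist1h1b is highest in Het_sham in each of the 6 classes.

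Het_sham had the highest summed level in resting cells of each of these 6 classes, though not in resting dendritic cells, where it had 178 CPM against 157, 193 and 172. Summed over the members it had 281 CPM in resting classical monocytes against 150, 164 and 139, 740 in resting neutrophils against 399, 423 and 289, and 363 in resting B cells against 289, 300 and 252. Hist1h1b had 26.7 CPM in resting neutrophils against 0, 0 and 3.66. Of non-classical monocytes thinned to 2000 UMIs, a class with few cycling cells, 39.5% carried a member UMI in Het_sham against 21.4%, 20.1% and 19.8%, beside 51.7%, 43.8%, 38.5% and 38.9% of macrophages. Before thinning the shares were 61.6%, 39.3%, 42.4% and 39.7% at median depths of 4239, 3971, 4753.5 and 4169.5 UMIs, and in macrophages 86.0%, 79.7%, 74.4% and 71.3% at 10678.5, 10607.5, 10646 and 8472. Het_sham was also the library in which thymocyte-like T cells gave 36.0% of all member UMIs, against 4.25%, 8.69% and 17.4%. The share of cells with a member UMI did not follow in every class: in resting T cells it was 33.3% in Het_sham against 36.4%, 37.1% and 37.1%, and in resting dendritic cells 30.8% against 36.0% in KO_sham and 39.4% in KO_MI. The part of RNA free in the cell suspension in these resting levels was not tested.

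Over all cells, the Het_sham library stood above the other libraries. The summed level was 1279, 699, 722 and 740 CPM, a log2 ratio of −0.83 (95% interval −0.85 to −0.80) for Het_MI over Het_sham, −0.87 for KO_sham over Het_sham, 0.08 for KO_MI over KO_sham and 0.03 for KO_MI over Het_MI. At least 1.5-fold lower were 43 of 56 members in Het_MI over Het_sham (background 8.71%) and 42 of 56 in KO_sham over Het_sham (background 8.14%), comparisons that share the Het_sham library. None was at least 1.5-fold higher in either (backgrounds 9.92% and 4.31%). In KO_MI over Het_MI no member of 55 reached 1.5-fold (backgrounds 3.28% higher and 6.66% lower), and in KO_MI over KO_sham 2 were higher and 1 lower of 56 (6.56% and 4.41%). With doublets kept, 11 and 20 members were at least 1.5-fold higher in these comparisons. Thymocyte-like T cells made up 5.41%, 0.548%, 1.51% and 2.40% of cells. Without them and the T cells the levels were 706, 661, 611 and 527 CPM, with log2 ratios of −0.21 for Het_MI over Het_sham, −0.10 for KO_sham over Het_sham, −0.33 for KO_MI over KO_sham and −0.22 for KO_MI over Het_MI.

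The most extreme members over all cells were low in count. In Het_MI over Het_sham the lowest was Hist2h2ab (H2A, log2 −1.56, interval −2.86 to −0.38) and the highest Hist2h3c2 (H3, 0.37, −0.37 to 1.12). In KO_sham over Het_sham they were Hist1h4b (H4, −1.76) and Hist2h3c2 (0.42), in KO_MI over KO_sham Hist1h3d (H3, −0.73) and Hist1h4k (H4, 1.36), and in KO_MI over Het_MI Hist1h2ai (H2A, −0.53) and Hist1h2bn (H2B, 0.51). Hist1h2bc, Hist1h1c and Hist3h2a differed little between libraries, with 70.7, 78.2, 68.4 and 71.1, 52.9, 49.2, 45.0 and 44.6, and 31.2, 29.5, 27.6 and 27.6 CPM in turn, whereas Hist1h1b had 273, 118, 113 and 119.

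Within macrophages the members were lower in the MI library than in the sham library of each genotype. The log2 ratio of the summed level was −0.40 (−0.43 to −0.36) for Het_MI over Het_sham and −0.54 (−0.57 to −0.51) for KO_MI over KO_sham. At least 1.5-fold lower were 19 of 49 members (background 6.6%) and 24 of 48 (background 5.38%), and none was at least 1.5-fold higher (7.36% and 6.28%). The median log2 ratio was −0.41 and −0.59 over these members, against −0.07 and −0.12 over all genes measured. For KO over Het the ratio was −0.17 after sham surgery, with 11 of 50 members lower (background 5.17%), and −0.31 after MI, with 13 of 47 lower (background 4.35%) and none higher (background 3.81% and 3.95% after MI and sham surgery). The KO_MI library was the shallowest in macrophages, with a median of 8472 UMIs against 10607.5 to 10678.5, and with doublets kept the 2 ratios that involve it were −0.27 over KO_sham and −0.07 over Het_MI. The counts then fell to 5 lower in KO_MI over KO_sham and to 3 lower, with 3 higher, in KO_MI over Het_MI, and rose to 18 lower, with 1 higher, in KO_sham over Het_sham. Hist1h2ai was the lowest member in both, at −1.17 and −1.40, and Hist2h2be (0.05) and Hist1h2bf (0.30) the highest. In Het_MI over Het_sham they were Hist2h3b (−1.59) and Hist2h3c1 (0.31), and in KO_sham over Het_sham Hist1h3g (−1.22) and Hist2h3c2 (0.50).

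Within a cycle range the macrophage differences took other values. In cells with both lists the log2 ratio was −0.01 (−0.05 to 0.03) for Het_MI over Het_sham, −0.03 for KO_sham over Het_sham, −0.24 for KO_MI over KO_sham and −0.26 for KO_MI over Het_MI. In resting cells it was −0.63, −0.47, −0.12 and 0.04 in that order. In the mitosis range, with 76 to 177 cells in a library, it was 0.47 (0.36 to 0.58), −0.11, 0.13 and −0.46. In the synthesis range it was 0.18, −0.13, −0.05 and −0.36. The MI library stood above the sham library of each genotype in the mitosis range, and in Het alone in the synthesis range. The share of macrophages with both lists was 14.9%, 14.05%, 10.0% and 9.23%. In the bulk of a class, fewer cycling cells and less histone RNA per cycling cell cannot be told apart, and the ranges were cut by the same UMIs. Het_sham was the highest library in resting macrophages and in macrophages with both lists. With both lists its margin over KO_sham and Het_MI lay within the counting interval, and KO_MI was the lowest.

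T cells differed widely between libraries. The log2 ratio was −1.54 (−1.62 to −1.46) for KO_sham over Het_sham, with 30 of 34 members at least 1.5-fold lower (background 24%), and 1.25 (1.17 to 1.34) for KO_MI over KO_sham, with 26 of 32 at least 1.5-fold higher (background 17.2%). It was −0.58 for Het_MI over Het_sham, with 17 of 37 lower (background 12.8%), and 0.29 for KO_MI over Het_MI, with 10 of 33 higher (background 7.05%). Hist1h1a, a linker histone, was the most extreme member of both comparisons with KO_sham, with −3.11 in KO_sham over Het_sham (12.4 against 107 CPM) and 2.82 in KO_MI over KO_sham (87.5 against 12.4). T cells with both lists made up 25.2%, 7.65%, 14.2% and 22.2% of T cells, and within that range the ratios of MI libraries were −0.12 for Het_MI over Het_sham and −0.03 for KO_MI over Het_MI. B cells stood at −0.04, −0.07, 0.23 and 0.20 for Het_MI over Het_sham, KO_sham over Het_sham, KO_MI over KO_sham and KO_MI over Het_MI, and thymocyte-like T cells stood at −0.23, −0.26, −0.10 and −0.13.

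**Figure D5:**
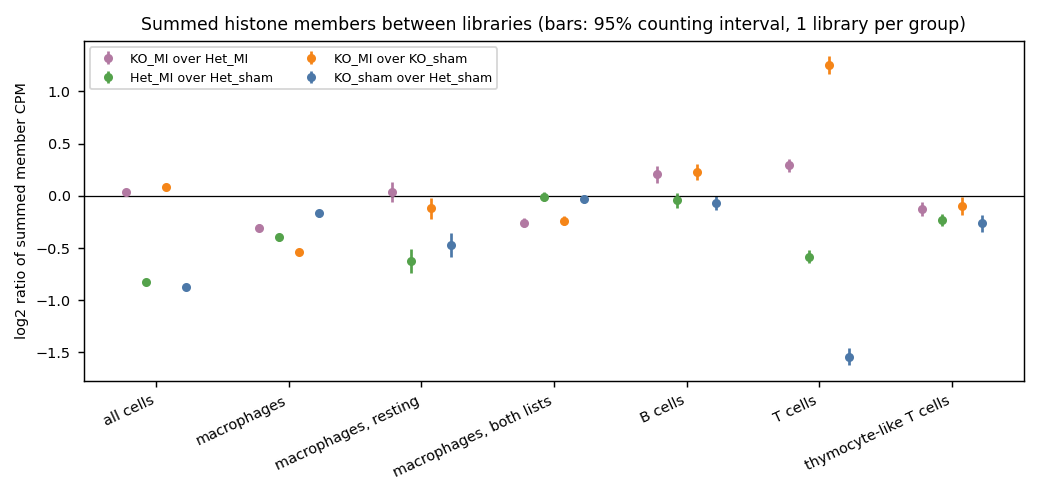
Log2 ratio of the summed level of the members between 2 libraries (y axis, coloured by comparison, with 95% conditional binomial intervals that cover counting error only) for (x axis) all cells, macrophages, macrophages of 2 ranges, B cells, T cells and thymocyte-like T cells. The T cell ratios spread from −1.54 to 1.25. Those of all macrophages lie between −0.54 and −0.17, and those of resting macrophages between −0.63 and 0.04.

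Other genes of histone supply were read in the same macrophage comparison of both lists with rest. Of 11 replication-independent histone variants, which are made outside DNA synthesis as well, 9 were tested, 8 were higher and 1 was lower (background 23.7% in each direction), with a median log2 fold of 0.84. H2afx, whose product marks DNA breaks when phosphorylated, was the highest at 3.25, with 236, 186, 167 and 174 CPM against 20.1, 19.1, 17.8 and 18.7. The 4 with most UMIs, H3f3b (0.37), H3f3a (0.14), H2afz (1.42) and H2afv (2.10), were all higher, and H2afj was lower (−0.36). Cenpa, the H3 variant of centromeres, was 2.11 higher and, higher still in the mitosis range, where it had 587, 536, 399 and 517 CPM against 211, 243, 222 and 209 with both lists.

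Of 18 genes for histone transcription and RNA 3′ processing, 17 were tested, 12 were higher and 1, Lsm10, a subunit of the U7 particle, was lower (−0.50; background 23.7% in each direction). Slbp, which encodes the protein that binds the stem-loop, had 152, 134, 135 and 141 CPM with both lists against 65.7, 56.1, 52.9 and 51.3 at rest, a log2 fold of 1.28 ± 0.06. In the mitosis range Slbp was back at 53.3, 52.1, 53.2 and 54.8 CPM and did not differ beyond the spread from rest (−0.13, adjusted p = 0.337). Eri1 (1.45), an exonuclease that trims the histone RNA end, was the highest of the list, followed by the transcription factor E2f1 (1.36). Npat, the coactivator of histone transcription, was 0.92 higher.

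Of 18 histone chaperones, which carry histones to DNA, all were tested, 13 were higher and 1, Ubn2, was lower (−0.29; background 23.7% in each direction). Asf1b, which hands H3 and H4 on to the assembly factors, stood at 105, 97.9, 99.1 and 89.4 CPM against 2.97, 2.14, 2.62 and 2.84, a log2 fold of 5.14 ± 0.12. Chaf1a, a subunit of the assembly factor CAF-1, followed at 3.52. The 4 with most UMIs, Nap1l1 (1.08), Anp32e (1.64), Nasp (0.88) and Atrx (0.13), were all higher.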

How the data were processed

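Single-cell 3′ libraries of sorted CD45+ heart cells were made for 4 groups, with 1 library each. The authors deposited filtered matrices of UMI counts per gene and cell, made with Cell Ranger 4.0.0 per the file headers (6.1.1 per the submitters' processing notes, which also name Seurat 4) on mm10, the GRCm38 build. How reads shared by near-identical copies were assigned is not given in the sources used here. Total counts were 52701847, 66587021, 60461796 and 72002420 for Het_sham, KO_sham, Het_MI and KO_MI.

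Cells with at least 500 UMIs, 200 genes and at most 10% mitochondrial UMIs were kept, 5376, 6407, 5074 and 7104 in the 4 libraries. The automatic threshold of Scrublet marked 0, 0, 1 and 1 cells and did not work, so its 301, 379, 186 and 392 highest-scoring cells, a number set from an assumed doublet rate and the barcodes in the matrix, and droplets with markers of 2 lineages (797, 964, 839 and 1477), were left out. Cell classes were gated by marker lists. Thinning to 2000 UMIs left out 553, 405, 243 and 575 shallower cells. Sums over a range use all UMIs of its cells. Summed counts per library were tested between ranges and classes within libraries with edgeR 4.0.16 in R 4.3.3 (quasi-likelihood test, library as block, TMM factors, filterByExpr, Benjamini-Hochberg adjusted p under 0.05 over all genes tested); the 4 libraries serve as replicates there. DESeq2 1.42.0 was an alternative. On simulated counts the comparison of macrophages with both lists and at rest recovered 82.7% of 98 genes changed 2-fold and 99.0% of 97 changed 4-fold, with 10659 genes tested. Ratios between libraries have no test, and their intervals cover counting error only. 1.5-fold counts use members with at least 30 UMIs in the pair.

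The members and lists were chosen with earlier results of these data known. Named are the 8 members with most UMIs, the leading member of each family, the 5 highest and 5 lowest tested members of each fit, the extreme members of each ratio, the members and symbols closest to 30 UMIs, the 4 with most UMIs and the highest and lowest of each related list, and Mki67, Top2a and Slbp. Other names were chosen after their values were seen.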

Additional observations from a re-analysis of the deposited data

Results flagged for a closer look

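The summed level of the members moved in opposite directions under the same comparison in several groups of cells. Each difference rests on 1 library per group and was not tested. Over all cells the log2 ratio of MI over sham was −0.83 in Het and 0.082 in KO, and that of KO over Het was −0.87 after sham surgery and 0.035 after MI. Without thymocyte-like T cells all 4 ratios were below 0, at −0.41, −0.097, −0.40 and −0.086 in that order. In T cells MI over sham gave −0.58 in Het and 1.25 in KO, and KO over Het gave −1.54 after sham surgery and 0.29 after MI. In B cells KO over Het gave −0.067 after sham surgery and 0.20 after MI, but the latter became −0.039, the same sign, with cells weighted equally. In mast cells or basophils MI over sham gave −1.34 in Het and 1.77 in KO, and KO over Het gave −2.34 after sham surgery and 0.77 after MI. Without the cell with most member UMIs in each library, the values for mast cells or basophils were −0.47, 1.19, −1.32 and 0.34 in the same order. Comparisons in a group of cells share libraries, so the 2 pairs of ratios are not separate evidence.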

How the results depend on the processing

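Of 464 values under alternative settings, 348 stayed within tolerance (the same side of the threshold, or a count within 1.5 times), 115 did not and 1 changed sign. The cause of these shifts was not tested. Replacing TMM by median-of-ratios factors moved none of 32 values. No paired analysis was possible because each group holds 1 library; the library itself was the block in all fits.

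With no filter on low counts, members higher with both lists than at rest numbered 32 in B cells and 36 in T cells, and 2 were lower in macrophages; at rest 11 were higher in B cells, 4 higher and 11 lower in macrophages, and 8 lower in non-classical monocytes; in synthesis against rest 10 were higher in B cells and 14 in T cells. Thinning to 1000 UMIs gave 2 lower with both lists than at rest in macrophages, 1 higher and 9 lower in resting classical monocytes, 9 lower in resting non-classical monocytes and 4 higher in resting T cells; in synthesis against rest it gave 13 higher and 2 lower in B cells, 22 higher in macrophages and 17 higher in T cells. With DESeq2, 1 member was lower in resting T cells, and 0 higher and 0 lower in synthesis against rest in B cells. With doublets kept, 1 was lower in resting T cells and 16 higher in synthesis against rest in macrophages. Defining ranges by at least 2 UMIs gave 1 lower with both lists than in synthesis in macrophages and 0 lower in synthesis against rest in B cells.

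Leaving out each library in turn gave 36 to 41 members higher and 1 to 2 lower with both lists than at rest in macrophages (2 without KO_sham). At rest it gave 0 to 1 lower in B cells, 4 to 8 lower in macrophages, and 1 to 4 higher and 1 to 2 lower in T cells; in synthesis against rest in B cells it gave 2 to 5 higher and 0 to 1 lower.

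Over all cells the log2 ratios of KO_MI over Het_MI, Het_MI over Het_sham, KO_MI over KO_sham and KO_sham over Het_sham were 0.26, −0.89, 0.34 and −0.98 with doublets kept, 0.0035, −0.95, 0.15 and −1.09 at 5% mitochondrial UMIs, 0.12, −0.71, 0.18 and −0.77 with cells weighted equally, and 0.16, −0.78, 0.18 and −0.80 with TMM factors. In macrophages they were −0.071, −0.53, −0.27 and −0.33 with doublets kept and −0.19, −0.32, −0.44 and −0.090 with TMM factors. Weighting macrophages equally gave −0.20 for KO_MI over Het_MI, −0.45 for Het_MI over Het_sham and −0.13 for KO_sham over Het_sham, and 5% mitochondrial UMIs gave −0.45 for Het_MI over Het_sham and −0.22 for KO_sham over Het_sham. The B cell ratio of KO_MI over Het_MI turned from 0.20 to −0.039 with cells weighted equally.

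With doublets kept, members at least 1.5-fold higher over all cells numbered 11 in KO_MI over Het_MI and 20 in KO_MI over KO_sham. In macrophages 3 were then higher and 3 lower in KO_MI over Het_MI, 5 lower in KO_MI over KO_sham, and 1 higher and 18 lower in KO_sham over Het_sham. TMM factors gave 1 higher in KO_MI over Het_MI over all cells. Requiring 100 UMIs gave 0 higher in KO_MI over KO_sham over all cells, and in macrophages 8 lower in KO_MI over Het_MI and 6 lower in KO_sham over Het_sham. The cycling share of macrophages in Het_sham, KO_sham, Het_MI and KO_MI was 25.1%, 25.2%, 19.3% and 16.8% at 1000 UMIs, 77.3%, 76.7%, 75.2% and 61.8% without thinning, 49.8%, 51.3%, 44.0% and 39.0% from at least 2 UMIs, and 28.9%, 30.1%, 22.7% and 18.9% from at least 5.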
